A study of Rattus norvegicus with 2 samples.

Results

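Circular RNAs (circRNAs) whose 2 junction ends lie 50000 bp or more apart in the genome were followed in libraries from a rat model of bone cancer pain. A circRNA belonged to the set when the deposited table gave it exactly 1 gene name, the distance from its first to its last base was at least 50000 bp, and it did not lie on chromosome Y. The set held 643 of the 17260 circRNAs used (3.73%), which is 4.24% of the 15155 with 1 gene name, and came from 362 of 5003 host genes. No measured read value entered this choice.

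The study sequenced 1 library per group, with 3 animals in each group and no statement of whether their RNA was pooled. In the bone cancer pain group, live cells of Walker256, a breast carcinoma of the rat that was grown as ascites in SD rats, were put into the marrow cavity of the tibia. The control group had the same operation with Walker256 cells that had been boiled for 20 minutes. Animals of both groups were killed 21 days after surgery. RNA was treated with RNase R, an exonuclease that degrades linear RNA, before sequencing. For the material itself the labels contradict each other, naming cancer cells in one field and spinal cord in another. With 1 library per group no difference between the conditions could be tested: every ratio below compares 2 libraries, and its 95% interval covers counting error only.

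A circRNA forms when the end of a downstream exon is spliced back to the start of an upstream exon, which leaves a junction that linear RNA lacks. The span is the genomic distance between those joined ends. It includes every intron between them, so it is not the length of the RNA circle, from which introns are usually removed. A host with long introns can therefore have a wide span from a few exons, and 1 host can give many circles that use different pairs of splice sites. The table reports back-splice junctions alone and does not show which inner exons a circle contains.

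Junction reads numbered 159941 in the control and 151685 with bone cancer pain, and paired read counts below are given in that order, control first. The table names human genes and human circBase identifiers (circBase is a public catalogue of circRNAs), although the samples are labelled as rat, and the build of its positions is not named. Of the 362 hosts, 334 had a rat gene of the same symbol. Strand was not part of the table, so a host and a gene on the other strand could not be told apart. Fewer cells of a type and less RNA per cell cannot be told apart in bulk libraries. Marker genes were looked for among circRNAs with 1 gene name only, so those with several names were not searched. Of 40 neuronal marker genes, 4 had any such circRNA (NRXN3, NAV3, NRG1 and RIMS1, with 293 and 246 reads together), and NRXN3 and NAV3 hosted long-span circRNAs. Marker lists of astrocytes, oligodendrocytes, microglia, muscle, blood and carcinoma cells had no long-span circRNA. Of those lists, carcinoma had 5 of 22 genes with any circRNA of 1 gene name (98 and 96 reads). Oligodendrocytes had 2 of 26, astrocytes 1 of 12, microglia 1 of 17, and muscle and blood none of 16 and 19. Among 24 endothelial and fibroblast genes 9 had a circRNA of 1 gene name, with 235 and 376 reads. COL5A2, a fibrillar collagen, hosted 1 of long span with 2 control reads. The part of these cell types in the ratios below was not tested.

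Spans started at 50016 bp and had a median of 68270 bp, against a median of 5765 bp over all circRNAs. The distribution was dense near its lower limit: 200 circRNAs spanned less than 60 kb and 137 spanned 100 kb or more. No circRNA in the table exceeded 200000 bp, and its longest, one with several gene names, spanned 197522 bp. At the limit, the nearest circRNAs inside were from NLK, a serine/threonine kinase (50016 bp, 0 and 4 reads), from MBOAT2 (50021 bp) and from PHKB (50150 bp). Just outside lay circRNAs of POLN, a DNA polymerase (49936 bp, 0 and 2 reads), and ZNF81, a zinc finger gene (49836 bp, 51 and 37 reads).

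Long-span circRNAs made up different shares of the chromosomes. On chromosome 18 they were 27 of 335 circRNAs with 1 gene name (8.06%), on chromosome 8 they were 43 of 623 (6.9%), on chromosome 4 they were 48 of 738 (6.5%) and on chromosome 13 they were 24 of 380 (6.32%). Chromosome 19 had 2 of 543 (0.368%), from ZNF331 and MLLT1 with 2 control reads each, and chromosome 16 had 6 of 583 (1.03%). The largest number, 88 of 1522 (5.78%), lay on chromosome 1.

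Most of the set was rare. The median was 4 reads over both libraries (5 over all circRNAs), and 183 circRNAs (28.5%) had the lowest possible value of 2 reads in all, against 26.0% of all circRNAs. At least 10 reads were reached by 165 (25.7%; 31.4% of all circRNAs), 20 reads by 86 (13.4%; 17.8%) and 50 reads by 28. The most-read circRNA of the set ranked 214 among all circRNAs. The 12 with the most reads held 1264 of the set's 6879 reads (18.4%).

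These 12 came from 12 host genes. The first was hsa_circ_0000972 of MBOAT2, a lysophospholipid acyltransferase (chromosome 2, 9048751 to 9098771), with 93 and 77 reads, which the table gives as 581 and 508 RPM (reads scaled to the library's junction reads; ratio of library shares 0.873, 0.637 to 1.19). The second, hsa_circ_0005882 of STK39, the SPAK kinase that phosphorylates cation-chloride cotransporters (chromosome 2, 168920010 to 168986268), had 88 and 69 reads (ratio 0.827, 0.594 to 1.15). In both the interval of the ratio included 1. Next came hsa_circ_0007259 of GTF2F2, a subunit of the general transcription factor TFIIF (chromosome 13, 45725822 to 45781640), with 55 and 77 reads (ratio 1.48, 1.03 to 2.13). The circRNA hsa_circ_0001346 of RNF13, an endosomal ubiquitin ligase (chromosome 3, 149563798 to 149639014), had 54 and 61 reads (ratio 1.19, 0.812 to 1.75). The interval lay above 1 for GTF2F2 and included 1 for RNF13. CRIM1, a transmembrane protein that binds bone morphogenetic proteins, gave hsa_circ_0005579 (chromosome 2, 36623757 to 36691798) with 46 and 65 reads (ratio 1.49, 1.01 to 2.22). EPSTI1, an interferon-inducible gene, gave a circRNA without circBase identifier (chromosome 13, 43491677 to 43544806) with 36 and 57 reads (ratio 1.67, 1.08 to 2.61). Both lower bounds were just over 1, and under scaling by the median ratio those of GTF2F2 and CRIM1 fell below it (0.978 and 0.954).

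The other 6 reached from 75 to 88 reads. A circRNA of PSPC1, a paraspeckle protein, had 52 and 36 reads (ratio 0.73, 0.464 to 1.14), one of CTBP2, a transcriptional corepressor, had 47 and 35 reads (ratio 0.785, 0.492 to 1.24), and one of CDK14, a cyclin-dependent kinase of Wnt signalling, had 45 and 35 reads (ratio 0.82, 0.512 to 1.3). All 3 intervals included 1. The ATXN7 circRNA, whose host is a subunit of the SAGA complex, was nearly even with 38 and 37 reads (ratio 1.03, 0.635 to 1.66). The remaining pair lay on opposite sides of 1. A circRNA of MCTP1, a calcium-binding membrane protein with C2 domains (chromosome 5, 94204038 to 94259726), had 25 and 61 reads (ratio 2.57, 1.59 to 4.28), and one of PHKB, the beta subunit of phosphorylase kinase (chromosome 16, 47531310 to 47581459), had 50 and 25 reads (ratio 0.527, 0.313 to 0.868).

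**Figure D1:**
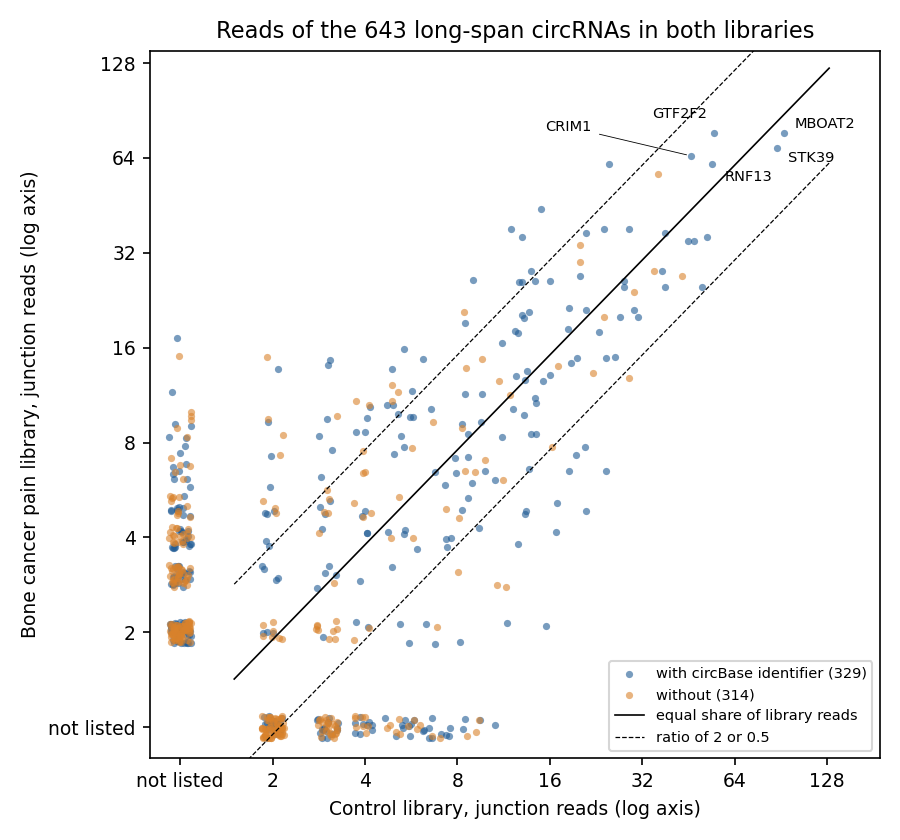
Junction reads of the 643 long-span circRNAs in the control library (horizontal, log axis) and the bone cancer pain library (vertical, log axis), 1 point each with small random offsets, coloured by circBase status; the solid line marks equal shares of the 2 libraries and the dashed lines ratios of 2 and 0.5. Most points sit at 2 to 4 reads or in the rows of circRNAs not listed in 1 library, and of the 12 circRNAs with the most reads all but that of MCTP1 lie between the dashed lines.

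A circBase identifier was given for 329 of the 643 (51.2%, 47.2 to 55.1), against 54.0% of all circRNAs and 58.9% of those with 1 gene name and a shorter span. Both libraries listed 230 (35.8%, 32.1 to 39.6), against 41.9% of all circRNAs and 44.3% of the shorter ones. Among circRNAs with similar reads the gap was not seen in every class. Of those with 2 to 4 reads, 37.9% of the long-span circRNAs had an identifier and 37.1% of all circRNAs did. From 5 to 9 reads the shares were 58.0% and 57.1%, from 10 to 19 reads 63.3% and 69.3%, from 20 to 49 reads 82.8% and 81.2%, and from 50 reads 78.6% and 89.6%. In the same order, the share listed in both libraries was 2.94% and 3.60%, 44.9% and 52.2%, 91.1% and 88.0%, 100% and 98.9%, and 100% and 99.7%. The catalogued circRNAs of the set had a median of 6 reads and those without an identifier 3.

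Summed over the set, 3260 reads made up 2.04% (1.97 to 2.11) of the control library, and 3619 reads made up 2.39% (2.31 to 2.46) of the bone cancer pain library. The ratio of the shares was 1.17 (1.12 to 1.23). It was 1.10 (1.05 to 1.16) over the 230 listed in both libraries, 1.11 (1.06 to 1.16) when the libraries were scaled by the median ratio of circRNAs, 1.14 (1.08 to 1.21) for those with a circBase identifier and 1.25 (1.14 to 1.36) for those without. Without MCTP1, the host with the most reads in the set, it was 1.17 (1.11 to 1.23). Over all circRNAs without an identifier the ratio was also above 1, at 1.14 (1.12 to 1.16).

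The ratio was not the same at all spans. Among circRNAs with 1 gene name it was between 0.94 and 1.02 in each class below 20 kb, 1.11 (1.08 to 1.13) from 20 to 50 kb, 1.19 (1.13 to 1.25) for the 506 from 50 to 100 kb and 1.10 (0.984 to 1.23) for the 137 of 100 kb or more. Over circRNAs listed in both libraries the last 3 values were 1.05 (1.03 to 1.08), 1.13 (1.06 to 1.20) and 0.989 (0.868 to 1.13). With the libraries scaled to their totals, the ratio was thus above 1 from 20 to 100 kb under both counts. At 100 kb or more the interval included 1. The span classes were not rescaled by the median ratio of circRNAs. That scaling shifts all log2 ratios by -0.08, as large as the excess behind the 1.05 from 20 to 50 kb.

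**Figure D2:**
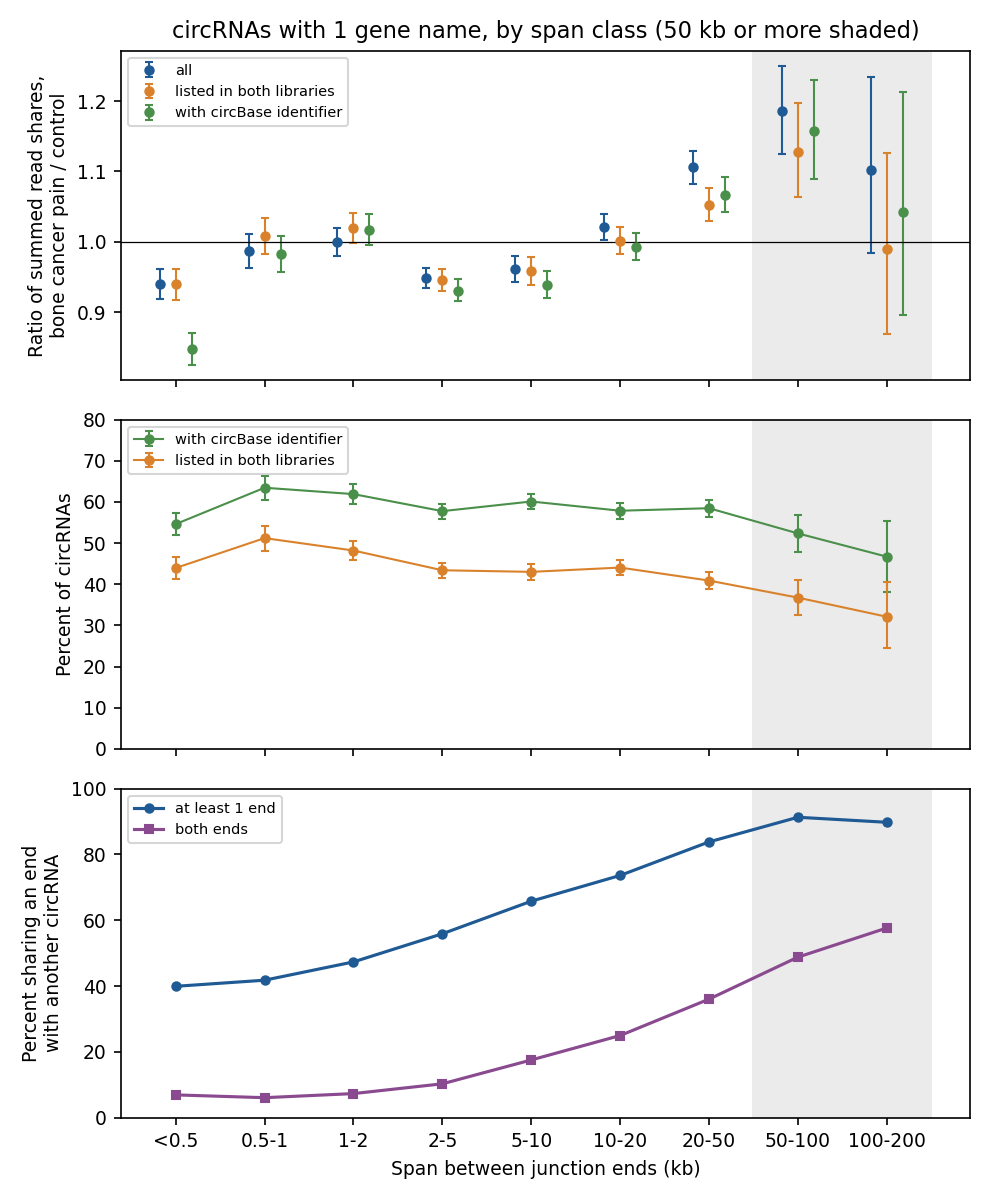
Values of circRNAs with 1 gene name in 9 span classes (horizontal axis, kb), with spans of 50 kb or more shaded: the ratio of summed read shares, bone cancer pain over control (top), the percent with a circBase identifier or listed in both libraries (middle) and the percent that share an end with another circRNA (bottom); bars are 95% intervals of counting error. The top ratio is 1.19 from 50 to 100 kb, and the percent sharing an end is highest in the shaded classes.

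Single circRNAs were called higher or lower in the bone cancer pain library when they had 10 or more reads over both libraries and a ratio of at least 2 or at most 0.5, with 0.5 reads added to each count. These calls are sizes, not tests. Over all circRNAs with enough reads, 17.3% were called higher and 17% lower. Of the 165 long-span circRNAs with enough reads, 37 were called higher (22.4%), 20 lower (12.1%) and 108 lay between. Their median log2 ratio was 0.08, against -0.0037 over all circRNAs. When the interval also had to exclude 1, 17 (10.3%) were higher and 12 (7.27%) lower, against 10.7% and 10.2% of all circRNAs. At 20 or more reads the calls stood at 10 of 86 higher (11.6%; 11.6% of all) and 7 lower (8.14%; 11.1% of all), with a median log2 ratio of -0.03 in both. The share called higher was thus above the background at 10 reads and equal to it at 20. The 31 circRNAs of 100 kb or more with 10 reads had 4 higher (12.9%) and 5 lower (16.1%) and a median log2 ratio of -0.35. The 134 of 50 to 100 kb had 33 (24.6%) and 15 (11.2%) and a median of 0.24.

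Among the 86 circRNAs with 20 or more reads, ratios ran from 0.264 to 3.37 with a median of 0.979, and by these ratios, with no reads added, 68 lay between 0.5 and 2. Of all 3079 circRNAs with 20 or more reads, the interval was above 1 for 13.2% and below 1 for 14.4%. Among the 86 it was above 1 for 13 (15.1%), below 1 for 7 (8.14%) and included 1 for 66. The highest ratio belonged to MAN1A2, a Golgi mannosidase that trims N-glycans, with 5 and 16 reads (ratio 3.37, 1.18 to 11.8). CLEC16A, a regulator of mitophagy, followed with 12 and 38 reads (ratio 3.34, 1.71 to 7.02), and ATG7, an E1-like enzyme needed for autophagy, with 15 and 44 reads (ratio 3.09, 1.69 to 5.98). None of these 3 intervals reached down to 1. ATP9B, a phospholipid-transporting ATPase family member, had 9 and 25 reads (ratio 2.93, 1.32 to 7.13). Its interval lay above 1, as did that of the MCTP1 circRNA of 55689 bp described above. Also among the 8 highest was LRBA, a BEACH-domain protein of vesicle traffic, with 6 and 15 reads (ratio 2.64, 0.967 to 8.29), and its interval included 1.

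At the other end, a circRNA of PKP4, a plakophilin of cell junctions, had 20 and 5 reads (ratio 0.264, 0.0773 to 0.724). FBXW4, an F-box protein, had 16 and 4 reads (ratio 0.264, 0.0641 to 0.817), and RERE, a transcriptional corepressor, had 23 and 6 reads (119623 bp, ratio 0.275, 0.0916 to 0.695). In these 3 the control library held at least 3 times as many reads. TBC1D22A, a TBC-domain protein, had 16 and 5 reads (ratio 0.33, 0.0944 to 0.941). FNDC3B, a fibronectin type III protein, had 20 and 7 reads (139090 bp, ratio 0.369, 0.132 to 0.909), and RAI14, an actin-associated ankyrin repeat protein, had 21 and 8 reads (ratio 0.402, 0.154 to 0.944). Those intervals were all below 1. Another CRIM1 circRNA of 64379 bp had 18 and 7 reads (ratio 0.41, 0.145 to 1.03), and SIPA1L1, a Rap GTPase-activating protein, had 17 and 8 reads (ratio 0.496, 0.185 to 1.21). Both of those intervals included 1.

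Of the 643, 174 circRNAs were listed in the control library alone and 239 in the bone cancer pain library alone. Over all 17260 circRNAs these numbers were 4938 and 5082. The table lists no circRNA below 2 reads, so an unlisted circRNA may have had 1 read, and no fold is given. Most were rare: the median was 3 reads in each group, and 3 of the control-only and 4 of the bone-cancer-pain-only circRNAs reached 10. These belong to the set's 165 with 10 or more reads. Of all 5415 circRNAs with 10 or more reads, 153 were control-only and 152 bone-cancer-pain-only. In the bone cancer pain library alone the most reads were 16 for hsa_circ_0069562 of APBB2, an adaptor that binds the amyloid precursor protein, and 16 for PEAK1, a pseudokinase of the cytoskeleton (80268 bp). KANSL1L (50508 bp) followed with 12 and SCLT1, a centriole protein (67222 bp), with 10. In the control library alone FMN2, an actin nucleator (65084 bp), FUT8, the enzyme of core fucosylation (68270 bp), and NRIP1, a nuclear receptor corepressor (75278 bp), had 10 reads each, and SPECC1 (52578 bp) had 9. A near-identical APBB2 circRNA ending 3 bp earlier, hsa_circ_0069561, was listed in both libraries with 5 and 10 reads, so the absence of the first from the control library concerns 1 of 2 adjacent junctions.

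The 10 longest circRNAs were mostly at the floor of the table. One with more reads was from ZFPM2, a GATA cofactor, of 190078 bp with 8 and 8 reads (ratio 1.05, 0.345 to 3.22), and its interval included 1. Of the 10, 8 were listed in 1 library, with 2 or 3 reads each. GMDS (187454 bp), an enzyme of GDP-fucose synthesis, and FNDC3B (186336 bp) were listed in the control. CDK14 (186436 bp), TOX, a high-mobility-group protein (179721 bp), ZCCHC7 (179403 bp), ASAP1, an Arf GTPase-activating protein (178880 bp), DNM3, a dynamin (177665 bp), and a circRNA named for the small nucleolar RNA SNORA70 (190301 bp) were listed in the bone cancer pain library. That name and Y_RNA stood for the host of 3 circRNAs in the set. Both name families of short RNAs.

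Hosts differed in how many long-span circRNAs they gave: 230 had 1, 111 had 2 to 4 and 21 had 5 or more. The most were 15 from PTK2, the focal adhesion kinase, followed among the hosts named here by 9 each from DIAPH3, FNDC3B and MCTP1, 8 from ASAP1 and 7 each from CDK14 and RBMS3, an RNA-binding protein. The 8 hosts with the most reads, among them MCTP1, STK39, CRIM1, MBOAT2, PTK2, RNF13 and CDK14, held 1583 reads, 23.0% of the set's total. No shorter circRNA with 1 gene name was listed for 24 hosts (6.63%). One was MSTO1, a mitochondrial outer-membrane protein, with 20 and 34 reads on 1 circRNA of 135479 bp, chosen here after its values were seen. No annotation of the build was used, so whether MSTO1 covers that span was not checked. On the 362 hosts together, 8.98% of the 76584 junction reads belonged to long-span circRNAs, and the median host had 11.2%. In 30 hosts that also had shorter circRNAs the long-span ones held over 50% of the reads, as in GTF2F2 (81.9%), PHKB (68.8%) and RNF13 (66.0%). The PHKB value pools 84.7% (73.0 to 92.8) in the control and 50.9% (36.8 to 64.9) in the bone cancer pain library.

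The shorter circRNAs of the same hosts did not share the summed excess. They numbered 2076 from 338 hosts, with 36155 and 33550 reads and a ratio of 0.978 (0.964 to 0.993). Of their 891 with 10 reads, 12.8% were called higher and 15.0% lower. CircRNAs of other hosts had a ratio of 0.993 (0.985 to 1.00). The interval of the long-span ratio (1.12 to 1.23) overlapped neither of these.

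Hosts with many reads differed among themselves. For MCTP1 the long-span circRNAs had 116 and 131 reads (ratio 1.19, 0.92 to 1.54), for STK39 125 and 107 reads (ratio 0.903, 0.691 to 1.18) and for CRIM1 101 and 107 reads (ratio 1.12, 0.843 to 1.48). All 3 included 1. The gene-name rule left out 8 more CRIM1 circRNAs of 50 kb or more, and with them CRIM1 had 274 and 255 reads and a ratio of 0.981 (0.824 to 1.17); with the 2 of MCTP1 left out likewise its ratio was 1.05 (0.815 to 1.34). The shorter STK39 circRNAs had 299 and 218 reads (ratio 0.769, 0.643 to 0.918), with 144 and 58 of them on hsa_circ_0001079 (20304 bp), and the shorter CRIM1 circRNAs had 1086 and 780 reads (ratio 0.757, 0.69 to 0.831), led by hsa_circ_0007386 (1478 bp) with 634 and 360 reads. RNF13 had 81 and 80 reads (ratio 1.04, 0.755 to 1.44) and CDK14 76 and 79 reads (ratio 1.1, 0.79 to 1.52), again including 1. PTK2 had 73 and 98 reads (ratio 1.42, 1.03 to 1.94), with an interval above 1. Of the hosts next in order, GTF2F2 had 55 and 85 reads (ratio 1.63, 1.15 to 2.33), EPSTI1 39 and 67 reads (ratio 1.81, 1.2 to 2.76) and RERE 81 and 51 reads (ratio 0.664, 0.458 to 0.954). The first pair lay above 1 and RERE below it.

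In MBOAT2 the long-span and the shorter circRNAs differed. The long-span MBOAT2 circRNAs had 113 and 94 reads (ratio 0.877, 0.66 to 1.16), while the shorter ones had 100 and 206 reads (ratio 2.17, 1.7 to 2.79). Nearly all of the shorter reads came from hsa_circ_0007334 (chromosome 2, 9083316 to 9098771, 15456 bp), which uses the same higher end as the 50021 bp circRNA and had 100 and 204 reads. Long-span circRNAs therefore held 53.1% (46.1 to 59.9) of MBOAT2 control reads and 31.3% (26.1 to 36.9) of its bone cancer pain reads. The 2 intervals of the share did not overlap. They were also apart in other hosts, among them PHKB, ATXN1 (55.6% and 20.9%) and, in the other direction, DYRK1A (23.9% and 48.4%). ATXN1 and DYRK1A were picked here after their values were seen.

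**Figure D3:**
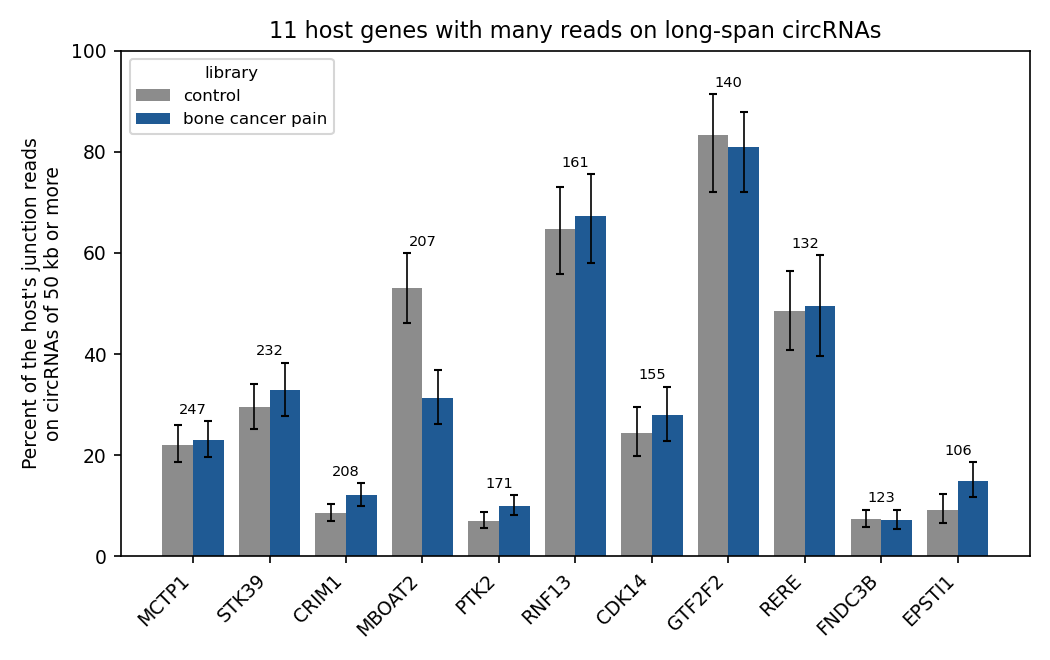
Percent of each host's junction reads on circRNAs of 50 kb or more (vertical axis) in the control (grey) and bone cancer pain (blue) libraries for 11 of the hosts with the most such reads; bars carry exact 95% intervals of counting error and the number above each pair is the host's long-span reads over both libraries. The intervals of the 2 libraries are apart for MBOAT2 (53.1% and 31.3%).

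The remaining hosts with many members were mostly thin. DIAPH3, a formin that assembles actin, had 19 and 56 reads on its 9 long-span circRNAs (ratio 3.11, 1.82 to 5.54) and 426 and 326 reads on the shorter ones (ratio 0.807, 0.696 to 0.934). Its most-read one, of 65260 bp, had 11 and 13 reads, and 6 of the others were listed in the bone cancer pain library alone. ASAP1 had 11 and 14 reads on 8 long-span circRNAs, none listed in both libraries, and 1604 and 1243 reads on the shorter ones (ratio 0.817, 0.758 to 0.88). RBMS3 had 23 and 10 reads (ratio 0.458, 0.195 to 1.0). Its bone cancer pain reads all lay on 1 pair of junctions within 10 bp of each other, with equal counts. The interval treats them as separate reads, and whether they were counted for both junctions was not tested. FNDC3B had 72 and 51 reads (ratio 0.747, 0.511 to 1.08) and 910 and 667 reads on its shorter circRNAs (ratio 0.773, 0.698 to 0.855). With 3 long-span FNDC3B circRNAs that carried other names too, its ratio was 0.68 (0.48 to 0.956), below 1, and with 2 such of RBMS3 the ratio there was 0.487 (0.224 to 0.999).

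Long-span circRNAs shared their ends widely. At least 1 end was also used by another circRNA in 585 of the 643 (91.0%), against 61.8% of all circRNAs, and both ends were in 326 (50.7%; 17.8% of all). Among circRNAs with 1 gene name the classes of 50 to 100 kb and of 100 kb or more had the highest shares, both for 1 end and for both ends. Another circRNA of the same gene lay within the ends of 562 of the set (87.4%). A wider span has more room for this, and the share was not counted for shorter circRNAs. An end was shared with a shorter circRNA of the host in 528 and with another long-span one in 305. Shorter circRNAs of the same hosts shared an end in 84.8% of cases and both ends in 38.2%. For circRNAs of other hosts these shares were 57.7% and 13.7%. The 58 long-span circRNAs with no shared end were rare, with a median of 2 reads, 128 and 157 reads in sum and a circBase identifier in 14.

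Within a host, long-span circRNAs that used a different end could differ in ratio. The 6 long-span MCTP1 circRNAs with their lower end at 94114815 had 84 and 63 reads (ratio 0.791, 0.561 to 1.11), among them 43 and 27 reads on the one of 144912 bp and 23 and 17 reads on that of 133867 bp. The 2 with their lower end at 94204038 had 25 and 64 reads (ratio 2.7, 1.68 to 4.47). Nearly all of these were on the circRNA of 55689 bp, already named above for its high ratio. The 2 intervals did not overlap, but the first included 1. The MCTP1 total given above pools both groups.

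In FNDC3B, RERE, PTK2 and CDK14 the ratio of long-span circRNAs also differed between ends, but within each host the long-span intervals given here overlapped. The ratios lay on opposite sides of 1 in PTK2 and CDK14, and were low against near 1 in FNDC3B and RERE. The 3 FNDC3B circRNAs starting at 171830242 had 37 and 12 reads (ratio 0.342, 0.162 to 0.67), and the 2 starting at 171969050 had 20 and 19 reads (ratio 1.0, 0.506 to 1.98). The 2 RERE circRNAs starting at 8555123 had 49 and 21 reads (ratio 0.452, 0.257 to 0.768), beside one of 73473 bp with 28 and 25 reads (ratio 0.941, 0.526 to 1.67). The low ratios did not extend to shorter circRNAs read at the same lower ends. There hsa_circ_0001361 of FNDC3B (21095 bp) had 144 and 152 reads (ratio 1.11, 0.88 to 1.41). In RERE, hsa_circ_0009581 (46255 bp) had 21 and 20 reads (ratio 1.0, 0.516 to 1.95). The 6 PTK2 circRNAs ending at 141900868 had 50 and 75 reads (ratio 1.58, 1.09 to 2.31), and the 3 starting at 141799573 had 16 and 8 reads (ratio 0.527, 0.195 to 1.31). In CDK14 the 3 starting at 90376996 had 23 and 41 reads (ratio 1.88, 1.1 to 3.28) and the 2 starting at 90355881 had 49 and 35 reads (ratio 0.753, 0.474 to 1.19). Shorter circRNAs use these ends too. At 90376996, hsa_circ_0001722 of CDK14 had 131 and 111 reads (ratio 0.893, 0.688 to 1.16). At 141900868, PTK2 had hsa_circ_0002483 with 321 and 304 reads (ratio 0.999, 0.851 to 1.17) and hsa_circ_0003221 with 101 and 137 (ratio 1.43, 1.1 to 1.87). The groupings of long-span circRNAs were formed by junction position after the values were known, and the circRNAs within one share part of their sequence.

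**Figure D4:**
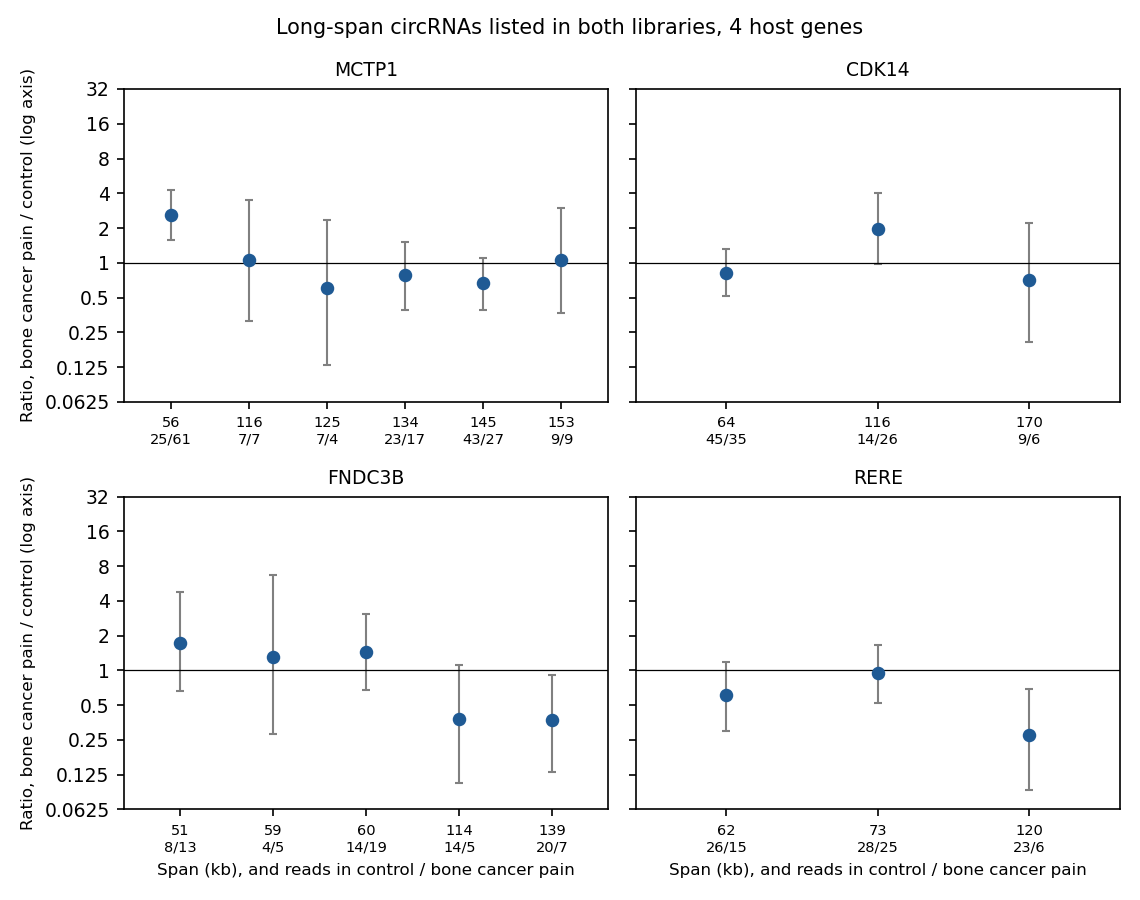
Ratio of bone cancer pain to control read shares (vertical, log axis, with exact 95% intervals of counting error) for each long-span circRNA listed in both libraries from MCTP1, CDK14, FNDC3B and RERE, in order of span (horizontal axis, kb, with control and bone cancer pain reads below). In MCTP1, CDK14 and FNDC3B circRNAs lie on both sides of 1, such as 25 and 61 reads at 56 kb against 43 and 27 reads at 145 kb in MCTP1, and in RERE all 3 lie below 1.

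The hosts were also read by function, from gene lists. Called circRNAs in each list were few, and no list was tested against the share called over all circRNAs. Of 117 kinase genes, 18 hosted 63 long-span circRNAs. The most-read were the STK39 and CDK14 circRNAs above. They were followed by one of DYRK1A, a dual-specificity kinase, with 24 and 38 reads (ratio 1.67, 0.976 to 2.91), and one of PTK2 of 60298 bp with 21 and 37 reads (ratio 1.86, 1.06 to 3.34).

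Genes of the cytoskeleton and cell adhesion had 24 of 199 hosting 55 long-span circRNAs, with 226 and 250 reads (ratio 1.17, 0.97 to 1.4). Of the 15 with 10 or more reads, 4 were called higher (26.7%, against 17.3% of all circRNAs) and 3 lower (20%, against 17%). The median log2 ratio of these was 0.31. NAV3, a neuron navigator that binds microtubules, gave one of 81544 bp with 12 and 24 reads (ratio 2.11, 1.01 to 4.63) and one of 118797 bp with 12 and 17 reads, and FNDC3B gave one of 59622 bp with 14 and 19 reads. Of RNA-binding and splicing genes, 14 of 113 hosted 33, with 208 and 180 reads (ratio 0.912, 0.743 to 1.12). Of their 8 with 10 or more reads, 2 were called higher (25%, against 17.3% of all) and 0 lower (against 17%). The median log2 ratio of these was -0.11. The largest were from EIF4G3, a translation initiation scaffold (38 and 25 reads), ATXN10 (30 and 21 reads) and LRBA (73141 bp, 31 and 20 reads). In these 3 the control library had more reads. A circRNA of STAU2, which carries RNA into dendrites, had 3 and 10 reads.

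Chromatin and transcription genes had 24 of 177 with a long-span circRNA, 37 in all, with 169 and 151 reads (ratio 0.942, 0.751 to 1.18). Of the 6 with 10 or more reads, 1 was called higher and 1 lower (16.7% each, against 17.3% and 17% of all circRNAs). The median log2 ratio of these was -0.11. The lower was the RERE circRNA of 119623 bp. The higher was KDM6A, an H3K27 demethylase, with 2 and 16 reads (ratio 8.44, 1.98 to 75.6), the highest ratio of any long-span circRNA listed in both libraries. RERE of 62460 bp had 26 and 15 reads and WHSC1, an H3K36 methyltransferase, had 12 and 18 reads. Ubiquitin and proteolysis genes had 15 of 116 with 28 circRNAs, with 120 and 134 reads (ratio 1.18, 0.913 to 1.52). Of their 5 with 10 or more reads, 0 were called higher and 0 lower, with a median log2 ratio of 0.25. Their other leading circRNAs were another one of RNF13 (56152 bp, 23 and 15 reads), RFWD2, the COP1 ubiquitin ligase (7 and 10 reads), and HERC4 (8 and 6 reads).

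Channels, transporters and cyclic nucleotide enzymes were few: 11 of 96 hosted 18 circRNAs with 26 and 66 reads (ratio 2.68, 1.68 to 4.39). The 58080 bp circRNA of ATP9B made up 34 of these 92 reads and was the list's single circRNA with 10 reads. ITPR2, an inositol trisphosphate receptor, had 0 and 7 reads, PDE10A, a cyclic nucleotide phosphodiesterase, 7 and 0 reads, and another ATP9B circRNA of 50641 bp 0 and 5 reads. Common fragile site genes, which are very long and break under replication stress, had 8 of 46 with 16 circRNAs. These circRNAs had 59 and 74 reads (ratio 1.32, 0.927 to 1.89). Of the 4 with 10 or more reads, 1 was called higher (25%, against 17.3% of all circRNAs) and 0 lower (against 17%). The median log2 ratio of those 4 was 0.34. NRXN3, a presynaptic adhesion protein, had 28 and 26 reads (ratio 0.979, 0.552 to 1.73), EXOC4, an exocyst subunit, 5 and 8 reads, LARGE, a dystroglycan glycosyltransferase, 8 and 4 reads, and LPP, a LIM-domain adhesion protein, 2 and 9 reads (ratio 4.74, 0.982 to 45.1). The NRXN3 circRNA was even between the libraries, and the LPP interval included 1. COL8A1, a short-chain collagen that the study's design names at the protein level, hosted 1 long-span circRNA of 53623 bp with 2 and 0 reads.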

How the data were processed

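Per the labels' protocols, ribosomal RNA was removed and linear RNA digested with RNase R (16 units, 15 minutes, 37 °C). The submitters' processing notes name CASAVA 1.8, BWA and rn6. Which program called the circRNAs, and with what minimum of reads, is not given in the sources used here. In 1 table the authors deposited a value per circRNA and library under a TPM heading. Every deposited value was a whole multiple, within 0.01 reads, of the worth of 1 junction read, so the values were treated as RPM, scaled to the library's junction reads, and divided back to reads. The value 0.001 was read as not listed, and the lowest listed value was 2 reads. Chromosome Y was left out, as were circRNAs with several gene names (2082) or none (23), other than in the totals and in the closing section. No sequence is printed, since no genome of the table's unnamed build was used here.

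Ratios are library shares of bone cancer pain over control, with exact conditional binomial 95% intervals (Clopper-Pearson), which also bound the shares; PCR copies are not independent molecules, so intervals cover counting error only. Named circRNAs were the 12 with the most reads, the 10 longest, the 8 highest and 8 lowest ratios at 20 or more reads, the 4 most-read in each library alone, the 8 hosts with the most members and the 8 with the most reads, 3 circRNAs on each side of the span limit, and the 4 most-read of each gene list; others are marked where named or rest on a list's call. Some items that this rule names are not reported here. The members and lists were chosen with earlier results of these data known. Alternatives changed the read minimum, span limit, fold, scaling, reads added, circBase status and listing in both libraries; those leaving out a host or adding a host's circRNAs with other names, and the restriction of the share ratio to 10 or more reads were chosen after seeing the data. Intervals came from scipy 1.17.1 under Python 3.11.15, tables from pandas 2.3.3 with numpy 2.4.6, and plots from matplotlib 3.10.9. The scripts were tested on simulated data.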

Additional observations from a re-analysis of the deposited data

Results flagged for a closer look

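The gene-name rule left out circRNAs of 50 kb or more that had several names or none, and 2 of these were listed in the bone cancer pain library alone with many reads. The first, hsa_circ_0000006, has no gene name (chromosome 1, 1601103 to 1666274, 65172 bp) and had 50 bone cancer pain reads. The other, on chromosome 6 from 26217452 to 26272474, carries the small-RNA names snoU13, Y_RNA and U3 and had 25 bone cancer pain reads. Neither was listed in the control library, and both drew attention as signal outside the circRNAs compared above. Other unnamed circRNAs overlap the first, and control reads were present there. Control first, hsa_circ_0000005 (64072 bp) had 11 and 0 reads, one of 71378 bp had 7 and 6, and one of 67448 bp had 0 and 2.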

How the results depend on the processing

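No paired analysis was possible because each group had 1 library. The set held 1604 circRNAs at a limit of 30 kb, 137 at 100 kb and 329 with a circBase identifier; the share of the control library was 6.28% at 30 kb, 0.377% at 100 kb and 1.67% for circRNAs listed in both libraries, and that of the bone cancer pain library 7.29%, 0.415% and 1.84%, as fewer or more circRNAs were counted. The share ratio stayed above 1: 1.11 after scaling by the median of ratios, 1.10 at 100 kb (0.984 to 1.23), 1.10 for those listed in both and, in an alternative added after seeing the data, 1.11 at 10 or more reads. Scaling by the median of ratios shifted all log2 ratios by -0.08 and gave 31 higher and 22 lower of 165, against 15.8% and 18.4% of all circRNAs. Higher and lower calls numbered 88 and 59 at 5 reads (29.0% and 19.5%, against 22.4% and 21.9% of all circRNAs). At 20 reads they were 10 and 7 of 86 (11.6% and 8.14%, against 11.6% and 11.1%). Calls were 105 and 57 of 467 at 30 kb, and 4 and 5 of 31 at 100 kb (12.9% and 16.1%). Beside both span limits, all circRNAs stood at 17.3% and 17%. A ratio of 1.5 gave 60 and 35 (36.4% and 21.2%, against 27.9% and 28.2%). Where the interval had to exclude 1, 17 and 12 remained (10.3% and 7.27%, against 10.7% and 10.2%). The median log2 ratio was -0.35 at 100 kb; the cause was not tested. The percent with an identifier was 66.0, 72.7 and 81.4 at minimums of 5, 10 and 20 reads, 55.7 at 30 kb and 46.7 at 100 kb, and the percent listed in both was 72.6, 95.8 and 100 at those minimums. Under the 2 other scalings run, 28 of the 29 named ratios kept their side of 1 or came to 1; ATXN7 went from 1.03 to 0.974 under the median of ratios. Under that scaling the interval came to include 1 for GTF2F2 (1.4, 0.978 to 2.02) and for CRIM1 of 68042 bp (1.41, 0.954 to 2.11; under TMM 1.48, 0.997 to 2.2), and no longer included 1 for CRIM1 of 64379 bp (0.389, 0.137 to 0.976). The main limits are 1 library per group, a median of 4 reads per circRNA, a table cut off below 2 reads, and human names and positions of an unnamed build in samples labelled rat.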

Other observations

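Reads are again given control first. Several long-span circRNAs came in pairs whose ends lay within 10 bp of each other, 12 circRNAs in all, from RBMS3, NRXN3, APBB2 and MPP6. In RBMS3 the pair ending at 29628696 and starting at 29476234 or 29476237 had 3 and 5 reads on the first and 3 and 5 reads on the other. The pair ending at 29529990 with the same starts had 2 control reads on each and none in the bone cancer pain library. These counts were equal within each pair. In NRXN3 the higher end was either 80271533 or 80271542: from the lower end 80163973 the first had 28 and 26 reads and the other 6 and 0 reads, and from 80158516 they had 0 and 9 reads and 0 and 3 reads. Whether 1 read was counted for both junctions of a pair was not tested.

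SDCCAG8, a centrosomal protein, was chosen here after its values were seen. Its 6 long-span circRNAs had 0 and 27 reads, while its shorter circRNAs had 81 and 62 reads (ratio 0.807, 0.57 to 1.14). The most-read of the long ones, of 51241 bp, had 9 reads, and each was listed in the bone cancer pain library alone.

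Of 827 circRNAs of 50 kb or more, 175 had several gene names, and 171 of these carried a small-RNA name. In 103 the other name was 1 gene, so the gene-name rule removed circRNAs of hosts described above. The 175 had 615 and 721 reads in all (ratio 1.24, 1.11 to 1.38). For CRIM1 they included hsa_circ_0006330 (83832 bp), with 87 and 60 reads, and hsa_circ_0008959 (54764 bp), with 48 and 41.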
